A study of Mus musculus with 24 samples.

Results

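The genes described here encode receptor parts, a kinase and ligands of the cytokine family that signals through the common gamma chain. They are 10 of the 24421 gene symbols counted in each library and are listed by name: the ligands Il15 and Il7, the shared chain Il2rg, the beta chain Il2rb, the chains Il2ra, Il7r, Il15ra, Il4ra and Il21r, and the kinase gene Jak3. The set was chosen by role in the pathway with measured values in view: the difference of Il2rb between Y665H and Y665F females was known beforehand. Total RNA of adipose tissue from 2-month-old C57BL/6 mice was sequenced, with 4 libraries in each of 6 groups. The groups were wild-type (WT) males and females, males and females with the substitution Y665F in STAT5B, and males and females with Y665H in STAT5B. Both substitutions change the same tyrosine in the SH2 domain of this transcription factor, to phenylalanine or to histidine. The title of the series speaks of liver, while the labels of these samples say adipose tissue. The labels name no fat depot, do not say whether 1 or both alleles carry the change, and do not say whether each library came from a separate mouse, so p-values measure the spread between these libraries only.

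Interleukins IL-2, IL-4, IL-7, IL-9, IL-15 and IL-21 share the gamma chain as a receptor subunit, and each receptor adds its own chain. The receptors of IL-2 and IL-15 also share the beta chain. The gamma chain binds the kinase JAK3 and the partner chain binds JAK1, and these kinases phosphorylate STAT proteins, STAT5A and STAT5B among them. In adipose tissue the beta chain and the IL-7 receptor are carried mainly by resident lymphocytes, which include T cells, natural killer (NK) cells and innate lymphoid cells, while stromal and myeloid cells are sources of IL-7 and IL-15, and the IL-4 receptor chain is present on many cell types.

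The sum over gene symbols was 21.0 to 41.3 M counts per library (M, 1e6), and the unit of all levels is CPM, the counts of a gene per M gene counts of its library. A count of 0 allowed up to 0.0726 to 0.143 CPM, a limit that covers counting error only. All 10 genes passed the filter on low counts in every comparison, and the lowest single value was 17 counts of Il7r in Y665H female 3. The 10 adipocyte marker genes summed to 6521 to 26419 CPM. Epididymis genes (8) summed to over 1000 CPM in WT males 2, 3 and 4 and in Y665H male 3, at up to 9475 CPM in WT male 2, and to at most 960.4 CPM in the other males and 0.272 CPM in females. Skeletal muscle genes (8) summed to over 400 CPM in WT females 1 and 4 and Y665H females 3 and 4, against 30.0 to 172 CPM in Y665F females, and 6 epithelial genes summed to 1092 CPM in Y665F female 3 against at most 170 CPM in the other females. The comparisons were therefore also fitted without the libraries over 1000 or 400 CPM, a choice made after these sums were seen, and values from these fits are given for the genes that the results turn on. Without the libraries rich in epididymis genes, WT male 1 is the only WT male left, so the spread of WT males is not measured there.

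Members were found by their symbols in the mouse genome build GRCm38 (mm10). Il2rb lies at chr15:78479256-78495271 and Il7r on the same chromosome at chr15:9505788-9530176, both on the minus strand. Il4ra at chr7:125552120-125579474 and Il21r at chr7:125603429-125633570 are neighbours on the plus strand of chromosome 7, as are Il2ra at chr2:11642807-11693193 and Il15ra at chr2:11705290-11734317 on chromosome 2. Il2rg lies at chrX:101264378-101268255, Il7 at chr3:7569994-7613760 and Il15 at chr8:82331632-82403222, all on the minus strand, and Jak3 at chr8:71676296-71690575 on the plus strand. Of the exon bases of Il2rg, 30.5% are also annotated to Gm20489 on the same strand, which the count files do not list, and 7.55% of those of Jak3 to the counted gene Insl3. Il4ra and Il7 share 9.51% and 1.85% of their exon bases with genes on the opposite strand. The strand setting of the counting is not given in the sources used here, so reads in these stretches could not be assigned with certainty.

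Divided by the length of their merged exons, the levels of the 10 genes spread widely. In WT females, Il4ra stood at 24.5 ± 9.69 and Jak3 at 10.6 ± 2.20 CPM per kb (SD, n = 4). Il15ra followed at 5.34 ± 0.772 and Il2rg at 4.29 ± 0.916 CPM per kb. Il15 was at 1.54 ± 0.142 CPM per kb, and the other 5 genes were below 1 CPM per kb, from 0.961 ± 0.202 for Il2rb to 0.317 ± 0.106 for Il7r. In Y665F males Il2rb reached 4.80 ± 0.401 CPM per kb, beside 5.22 ± 0.551 for Il15ra and 6.96 ± 1.53 for Il2rg.

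**Figure D1:**
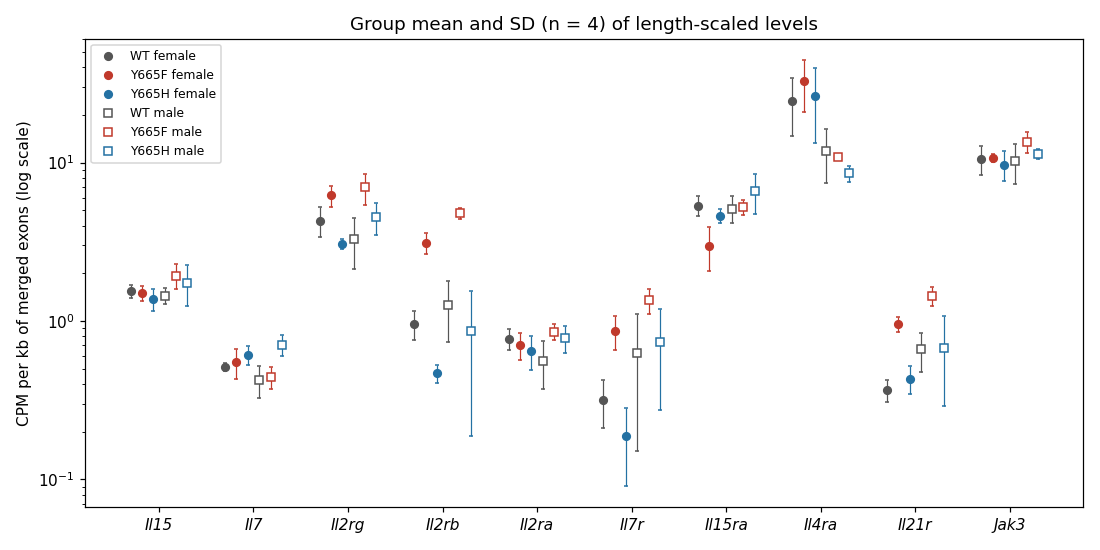
Group means (points) and SD (bars, n = 4) of the 10 genes in CPM per kb of merged exons, on a log axis, for the 6 groups. Il4ra and Jak3 lie highest, at 24.5 and 10.6 CPM per kb in WT females, and Il2rb spans 0.468 CPM per kb in Y665H females to 4.80 CPM per kb in Y665F males.

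Among the ligands, neither Il15 nor Il7 passed the test in any of the comparisons that were tested. Il15, which supports NK cells and memory T cells, was at 3.66, 3.37, 3.09 and 3.82 CPM in WT females, 3.41, 3.73, 2.88 and 3.60 CPM in Y665F females and 2.63, 2.72, 3.51 and 3.52 CPM in Y665H females. In males it was at 3.66, 2.75, 3.28 and 3.36 CPM in WT, 4.17, 3.87, 5.53 and 3.88 CPM in Y665F and 3.20, 3.75, 3.20 and 5.61 CPM in Y665H. All female groups overlapped, and the Y665F males lay above the WT males without overlap, by a log2 fold change of 0.47 (SE 0.21, adjusted p 0.308 by edgeR). Il7, the survival factor of naive T cells and of lymphocyte precursors, was at 3.02, 1.69, 2.33 and 2.55 CPM in WT males and at 3.63, 4.19, 3.45 and 4.79 CPM in Y665H males. These groups did not overlap, and the log2 fold change was 0.75 (SE 0.26, adjusted p 0.402 by edgeR). Without the libraries rich in epididymis genes it was 0.44, in a fit that keeps a lone WT male. Y665F males, at 2.02 to 2.99 CPM, overlapped with WT males and lay below Y665H males. In females Il7 was at 2.69 to 3.12 CPM in WT, 2.13 to 3.66 CPM in Y665F and 3.15 to 4.14 CPM in Y665H. In the order of group means for both ligands, every pair of neighbouring groups overlapped.

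Il2rg, the gamma chain itself, was at 9.85, 11.6, 7.31 and 12.2 CPM in WT females. Y665F females had 17.9, 14.9, 12.6 and 13.8 CPM, and Y665H females 7.15, 7.66, 6.62 and 7.89 CPM. The Y665F females lay above all libraries of the other female groups, while Y665H and WT females overlapped at the lower end of WT. Against WT, the log2 fold change was 0.40 for Y665F (SE 0.19, adjusted p 0.214 by edgeR) and -0.47 for Y665H (SE 0.16, adjusted p 0.132 by edgeR), and neither was called at an adjusted p under 0.05. The second was called without WT female 3 (edgeR, adjusted p 0.0316.) In males, WT had 11.6, 4.70, 7.62 and 7.70 CPM, Y665F 19.9, 19.5, 14.5 and 12.5 CPM and Y665H 11.1, 9.13, 8.86 and 14.3 CPM. Y665F males lay above WT males without overlap, with a log2 fold change of 1.12 (SE 0.31, adjusted p 0.211 by edgeR). The DESeq2 Wald test gave this difference an adjusted p of 0.0230. Without WT males 2, 3 and 4 the log2 fold change was 0.49, in a fit that keeps a lone WT male.

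Il2rb, the beta chain of the IL-2 and IL-15 receptors, had the largest fitted difference of the 10 genes for Y665F in both sexes and for Y665H in females. WT females had 4.88, 4.15, 2.9 and 4.54 CPM, Y665F females 14.5, 13.7, 10.4 and 14.8 CPM and Y665H females 2.30, 2.17, 1.80 and 1.76 CPM. The 3 female groups were separate, with Y665F above and Y665H below WT. The difference of Il2rb between these mutant libraries was known beforehand, so its p-values against WT females are not free of that choice. Il2rb rose 2.96-fold in Y665F females, a log2 fold change of 1.57 (SE 0.20, adjusted p 0.0113 by edgeR), and was called in each of the 8 fits that left out 1 library, with edgeR adjusted p of 0.00491 to 0.0442. It fell in Y665H females to a fitted 0.496 of the WT level, a log2 fold change of -1.01 (SE 0.20, adjusted p 0.0379 by edgeR). That call was lost in 7 of 8 fits without 1 library, with edgeR adjusted p of 0.0624 to 0.127, and held without WT female 3, with 0.0190. Without the libraries rich in muscle genes, the log2 fold changes were 1.78 (SE 0.26, adjusted p 0.114 by edgeR) and -0.61 (SE 0.30, adjusted p 0.567 by edgeR), and both calls ended.

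Male libraries had Il2rb at 4.38, 3.74, 8.72 and 4.83 CPM in WT, at 22.0, 20.0, 21.9 and 18.4 CPM in Y665F and at 4.38, 1.41, 1.51 and 7.59 CPM in Y665H. The Y665F males were above every other library of the series, and the WT and Y665H males overlapped. Against WT males the log2 fold change in Y665F was 1.97 (SE 0.28), a 3.93-fold difference, with an edgeR adjusted p of 0.0886. It was called without WT male 1, with an edgeR adjusted p of 0.0420, and by the DESeq2 Wald test, with an adjusted p of 1.79e-08. Without WT males 2, 3 and 4 the value was 2.19 (SE 0.24, adjusted p 0.907 by edgeR), in a fit where the lone WT male is assumed to vary like the other group and in which no gene was called. In Y665H males the log2 fold change against WT was -0.56 (SE 0.56, adjusted p 0.585 by edgeR). By group mean, Y665F males at 20.6 ± 1.72 CPM came first and Y665F females at 13.4 ± 2.04 CPM next, without overlap between them or with the WT males at 5.42 ± 2.25 CPM. WT females at 4.12 ± 0.864, Y665H males at 3.73 ± 2.92 and Y665H females at 2.01 ± 0.267 CPM followed, and each of these overlapped with its neighbours in the order.

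**Figure D2:**
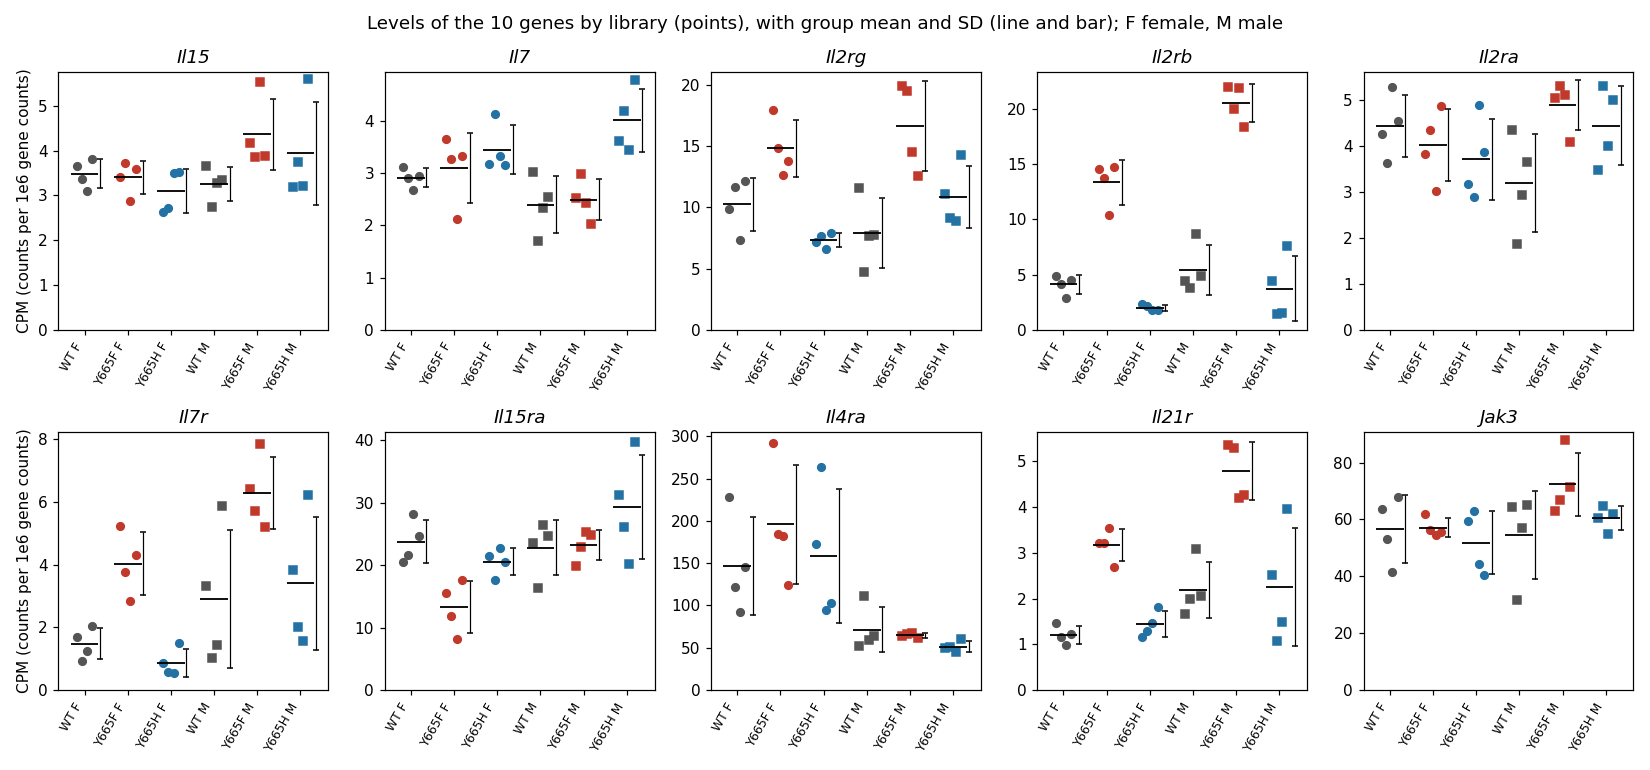
CPM of each of the 10 genes in the 24 libraries (points), with the group mean (line) and SD (bar, n = 4), for WT, Y665F and Y665H females (F, circles) and males (M, squares). Il2rb lies at 10.4 to 22.0 CPM in the 8 Y665F libraries and at most 8.72 CPM in the 16 others.

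Of the receptor chains other than Il2rg and Il2rb, Il7r and Il21r were called higher in Y665F females. They are 2 of the 3 members called in that comparison, and their upstream sequences are shown because RefSeq windows were found for them. The 250 bases before the start that RefSeq gives are shown 5′ to 3′ on the strand of the gene, from RefSeq on GRCm38.p6, Il7r at chr15:9529877-9530126 on the minus strand and Il21r at chr7:125603179-125603428 on the plus strand. The RefSeq start of Il21r is the start of the gene span printed above, but that of Il7r lies inside the span from GENCODE, so the Il7r stretch is upstream of the RefSeq start and within the GENCODE gene. Capitals mark a match to the motif TTCNNNGAA, the spacing to which STAT5 dimers are known to bind.
Il7r: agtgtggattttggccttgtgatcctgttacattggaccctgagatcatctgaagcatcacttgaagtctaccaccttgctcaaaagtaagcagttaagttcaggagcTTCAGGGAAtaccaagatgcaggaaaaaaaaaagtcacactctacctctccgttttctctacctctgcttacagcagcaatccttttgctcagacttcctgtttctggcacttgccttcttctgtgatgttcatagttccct
Il21r: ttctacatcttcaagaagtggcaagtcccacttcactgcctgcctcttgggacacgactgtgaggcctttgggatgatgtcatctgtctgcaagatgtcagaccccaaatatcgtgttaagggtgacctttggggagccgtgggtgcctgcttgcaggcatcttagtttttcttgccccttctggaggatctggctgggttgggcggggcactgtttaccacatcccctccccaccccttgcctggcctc
Windows of 300 bases, 250 before and 50 after a start, were found for 7 of the 10 members, and Il2rb, Il15 and Il7 are named only. TTCNNNGAA and TTCNNNNGAA, which each read the same on both strands and may overlap each other, were searched in them. The match in Il7r, at bases -142 to -134 from the RefSeq start and inside the GENCODE gene, was the only match in the 7 members. TTCNNNGAA is present in 8.30% of all 32851 windows of that length and TTCNNNNGAA in 6.95%, so a match in 1 member of 7 is a description and not a binding site. The missing match in Il21r says only that these letters are not in its window.

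Il7r, the alpha chain that pairs with the gamma chain to bind IL-7, was the lowest of the 10 genes per kb in WT females. It was at 1.68, 0.933, 1.24 and 2.05 CPM in WT females, 5.24, 3.75, 2.85 and 4.31 CPM in Y665F females and 0.878, 0.576, 0.529 and 1.51 CPM in Y665H females. Y665F females lay above both other female groups, which overlapped. The rise in Y665F was 2.5-fold (log2 fold change 1.32, SE 0.29, adjusted p 0.0472 by edgeR), close to the threshold. The call was lost in 7 of 8 fits that left out 1 library, with edgeR adjusted p of 0.0706 to 0.130, and held without Y665F female 3, with 0.0226. Without the filter on low counts the edgeR adjusted p was 0.0557, and in the fit over all 24 libraries 0.134. Without WT females 1 and 4 the value was 1.76 (SE 0.33, adjusted p 0.126 by edgeR). In Y665H females the log2 fold change was -0.73 (SE 0.37, adjusted p 0.266 by edgeR). Males had 3.31, 1.02, 1.44 and 5.87 CPM in WT, 6.42, 5.70, 7.86 and 5.20 CPM in Y665F and 3.82, 2.01, 1.57 and 6.24 CPM in Y665H. WT male 4 and Y665H male 4 reached into the range of Y665F males, and the log2 fold change of 1.17 in Y665F (SE 0.53, adjusted p 0.305 by edgeR) was not called.

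Il21r, the chain that binds IL-21, was at 1.46, 1.17, 0.994 and 1.21 CPM in WT females, and Y665F females had 3.22, 3.22, 3.54 and 2.68 CPM. The groups were clearly apart, and the rise was 2.38-fold (log2 fold change 1.25, SE 0.17, adjusted p 0.0150 by edgeR). The call was lost without WT female 4 (edgeR, adjusted p 0.0504), without Y665F female 1, with 0.0522, and without WT females 1 and 4, where the value was 1.40 (SE 0.23, adjusted p 0.114 by edgeR). Y665H females, at 1.16, 1.29, 1.46 and 1.82 CPM, overlapped with WT females, with a log2 fold change of 0.25 (SE 0.20, adjusted p 0.464 by edgeR), so Il21r did not take the place below WT that Il2rb had. In males, Il21r was at 1.67, 1.98, 3.08 and 2.05 CPM in WT, 5.36, 5.30, 4.19 and 4.27 CPM in Y665F and 2.51, 1.08, 1.48 and 3.97 CPM in Y665H. Y665F males lay above both other male groups, by a log2 fold change against WT of 1.17 (SE 0.25, adjusted p 0.132 by edgeR) that the DESeq2 Wald test called with an adjusted p of 0.000826. By mean, Y665F males and Y665F females came first and second without overlap, and each later pair of neighbours overlapped.

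Il15ra, which presents IL-15 to neighbouring cells, was lower in Y665F females, opposite to Il2rb, without passing the test. It was at 20.5, 21.6, 28.2 and 24.6 CPM in WT females, 15.5, 11.8, 8.24 and 17.7 CPM in Y665F females and 21.4, 17.6, 22.7 and 20.4 CPM in Y665H females. All Y665F females lay below all WT females, at a log2 fold change of -0.97 (SE 0.23, adjusted p 0.0619 by edgeR). The difference was called without Y665F female 3, the library rich in epithelial genes, at -0.78 with an edgeR adjusted p of 0.0300, and also by the DESeq2 Wald test (adjusted p 0.00193) and by edgeR over all 24 libraries (adjusted p 0.0214). Without WT females 1 and 4 it was at -1.04 (SE 0.31, adjusted p 0.221 by edgeR). In males the groups overlapped, at 16.4 to 26.5 CPM in WT, 19.9 to 25.3 CPM in Y665F and 20.2 to 39.7 CPM in Y665H.

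Il2ra, the chain that gives the IL-2 receptor its high affinity and is abundant on regulatory T cells, stayed between 1.85 and 5.30 CPM in all 24 libraries. Its group means ran from 3.20 ± 1.06 CPM in WT males to 4.88 ± 0.547 CPM in Y665F males, and every pair of neighbours in that order overlapped. The log2 fold changes in Y665F were -0.27 (SE 0.19, adjusted p 0.388 by edgeR) in females and 0.66 (SE 0.30, adjusted p 0.304 by edgeR) in males, so the Il2ra and Il2rb chains of the same receptor did not share a pattern in females. In Y665H they were -0.25 (SE 0.19, adjusted p 0.457 by edgeR) and 0.48 (SE 0.32, adjusted p 0.446 by edgeR).

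Il4ra, the IL-4 receptor chain that macrophages and stromal cells also carry, was called between the WT sexes and in no comparison of a mutant with WT. WT females had 228, 122, 92.1 and 146 CPM and WT males 51.9, 111, 58.6 and 63.7 CPM. Only WT male 2, the library richest in epididymis genes, reached into the female range. The gene was lower in WT males by a log2 fold change of -1.19 (SE 0.32, adjusted p 0.0464 by edgeR). The call held without WT male 1 or WT male 2 (the latter with an edgeR adjusted p of 0.0231) and was lost without each of the 6 other libraries, with 0.0657 to 0.109. Without WT males 2, 3 and 4, in a fit that keeps a lone WT male, the log2 fold change was -1.57. Y665F and Y665H females were at 125 to 292 and 94.2 to 264 CPM, and males of these genotypes at 61.1 to 67.7 and 45.5 to 59.7 CPM. Against WT of the same sex, the log2 fold changes of Il4ra lay between -0.45 and 0.29, with edgeR adjusted p of 0.402 to 0.864.

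Jak3, the kinase bound to the gamma chain, was at 41.6 to 67.9 CPM in WT females, 54.5 to 62.0 CPM in Y665F females and 40.5 to 63.1 CPM in Y665H females, all overlapping. In males it was at 64.3, 31.7, 57.0 and 65.0 CPM in WT and at 62.9, 66.9, 87.9 and 71.4 CPM in Y665F, with Y665H males between 55.0 and 64.9 CPM. The log2 fold change in Y665F males was 0.45 (SE 0.24, adjusted p 0.355 by edgeR), and the other contrasts with WT gave -0.12 to 0.16, with edgeR adjusted p of 0.619 to 0.771. Jak3 was thus not among the genes called with Il2rb, Il7r and Il21r in Y665F females.

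The first comparison asks what Y665F changes in females. Of the 10 genes, 3 were called, all higher (Il2rb, Il7r and Il21r), where 3.33% of all 15642 tested genes were called and 2.31% were called higher. The call of Il2rb is not free of the choice of the members. Groups did not overlap for 4 genes that were higher, Il2rg being the fourth, and 19.9% of all tested genes had this property. Il15ra was the 1 gene with groups apart that was lower, against 2.96% of all genes. The median log2 fold change was 0.12 over the members and 0.020 over all tested genes, with 5 of 10 above 0. In bulk tissue, a change in the number of cells that carry a transcript and a change of its level per cell cannot be told apart. The count of called members was 1 without WT female 4 or without Y665F female 1, between 2 and 4 without each other library, and 0 without WT females 1 and 4, a fit in which 0 of 15897 genes were called by edgeR, 2482 having an unadjusted p under 0.05.

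Leukocyte genes of several kinds were higher in these libraries, T cell genes among them. Of 15 T cell markers, 12 were called higher in Y665F females, among them Cd3d (log2 fold change 2.28, SE 0.30, adjusted p 0.0148 by edgeR), Cd8a (2.06, SE 0.23, 0.00978) and Cd4 (1.84, SE 0.18, 0.00884), with a median of 1.84 against 0.020 over all genes. The summed level of the whole T cell list was 46.0 to 75.4 CPM in WT, 78.7 to 98.7 CPM in Y665F and 38.3 to 68.5 CPM in Y665H females, and none of its genes was at 0 in a group. The T cell receptor genes Cd3d, Cd3e and Cd3g summed to 1.61 to 2.46 CPM in WT, 7.66 to 10.7 CPM in Y665F and 1.43 to 5.31 CPM in Y665H females. NK cell markers were called higher for 3 of 8 tested (Klrd1, Klrk1 and Nkg7), B cell markers for 3 of 10. The NK list, which shares Gzma, Prf1 and Eomes with the response list described further on, summed to 5.97 to 8.04 CPM in WT and 11.6 to 13.6 CPM in Y665F females, and its gene Klra8 was at 0 in all groups but Y665F females. Of the macrophage and dendritic cell list 11 of 12 genes were above 0 and 1, Flt3, was called higher, with sums of 944 to 1407 CPM in Y665F against 648 to 902 CPM in WT females. The regulatory T cell and ILC2 list had 2 of 7 tested genes called higher (Ctla4 and Klrg1), with sums of 51.7 to 173 against 25.6 to 31.0 CPM. Ptprc, the pan-leukocyte gene for CD45, was at 69.6 to 111 against 27.4 to 40.3 CPM. All 10 adipocyte genes had negative log2 fold changes and none was called. Of 8 lymph node stroma genes, the chemokine Ccl21a was at 0 in every group. Of the 4 that could be tested, 3 were above 0 and none was called. The list summed to 33.8 to 55.2 CPM in Y665F and 27.1 to 59.6 CPM in WT females, and a part of lymph node tissue was not tested. The part of cell numbers in the difference of Il2rb, Il7r and Il21r was not tested.

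Set against these markers, the members differed. Il2rb per summed CPM of Cd3d, Cd3e and Cd3g in females was 2.07 ± 0.405 for WT, 1.5 ± 0.224 for Y665F and 1.00 ± 0.478 for Y665H (SD, n = 4). In males the same ratio was 1.88 ± 0.484 in WT, 2.07 ± 0.371 in Y665F and 1.06 ± 0.276 in Y665H. The ranges of Y665F and WT females on this scale, 1.30 to 1.79 and 1.66 to 2.58, overlapped. The direction depended on the genes summed. As a percentage of the whole T cell list, in which Thy1, also a stromal gene, accounted for 30.2 to 59.4 CPM in these libraries, Il2rb was at 15.4 ± 2.85% in Y665F females, above the 6.89 ± 1.14% of WT females without overlap. Per summed CPM of the list without Thy1 it was at 0.277 ± 0.0241 and 0.292 ± 0.0444 in these groups, which overlapped. In males it was at 0.330 ± 0.0814 in Y665F and 0.207 ± 0.097 in WT, and the ranges, 0.225 to 0.397 and 0.0794 to 0.297, overlapped too. That list summed to 47.1 CPM in WT male 2, rich in epididymis genes, against 18.2 to 29.4 CPM in the other WT males. Its Cd3d, Cd3e and Cd3g, at 2.59 CPM, were not above theirs. Per summed CPM of 9 NK cell genes, with Klrb1c left out, Il2rb was at 0.667 ± 0.138 in WT, 1.17 ± 0.157 in Y665F and 0.739 ± 0.157 in Y665H females. In males it was at 0.810 ± 0.212, 1.13 ± 0.251 and 0.615 ± 0.11, and Y665F and WT males overlapped, at 0.882 to 1.41 and 0.557 to 1.06. On this scale the Y665F females, at 0.953 to 1.33, lay above the other female libraries, which reached 0.881. Il7r per the 3 T cell receptor genes was 0.720 ± 0.107 in WT and 0.448 ± 0.0633 in Y665F females, and Il21r 0.612 ± 0.101 and 0.362 ± 0.0808, in both cases lower in Y665F without overlap. Per summed CPM of the NK genes both were higher in Y665F females by mean, Il7r at 0.353 ± 0.0762 against 0.243 ± 0.0853 and Il21r at 0.278 ± 0.0349 against 0.197 ± 0.0373. As a percentage of the whole T cell list they were also higher, without overlap, Il7r at 3.27 to 5.48% against 1.5 to 2.94% and Il21r at 3.27 to 4.06% against 1.61 to 2.56%, while per list without Thy1 the groups overlapped for both. Thy1 and Klrb1c were left out after their values were seen, Klrb1c since it stood at 117 CPM in WT male 2 alone.

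**Figure D3:**
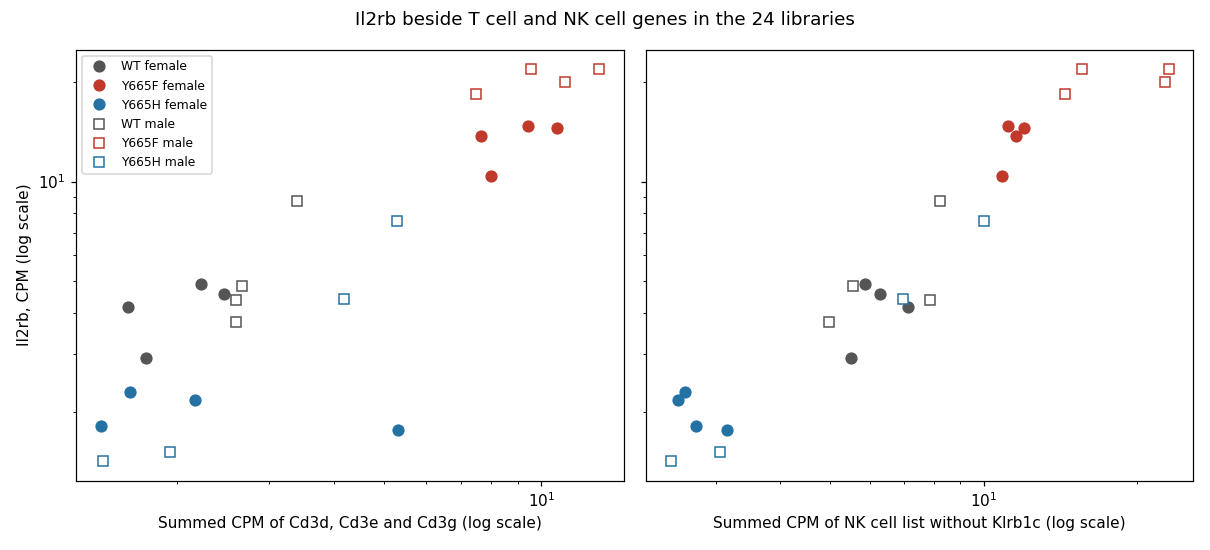
Il2rb (CPM, log scale) in the 24 libraries against the summed CPM of Cd3d, Cd3e and Cd3g (left) and of the NK cell list without Klrb1c (right), both on log axes, for females (filled) and males (open). Y665F libraries lie at the top right of both panels; Y665H female 4 has 5.31 CPM of the T cell receptor genes with 1.76 CPM of Il2rb, and lies with the other Y665H females, at 2.53 to 3.15 CPM, on the NK axis.

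Other genes of the pathway, a list of 26 of which 21 could be tested, followed in part. In Y665F females 3 were called higher and none lower, the median was 0.073 and 15 of 21 were above 0. Il9r, the IL-9 receptor chain, was at 1.43 ± 0.279 CPM against 0.508 ± 0.169 CPM in WT females, a log2 fold change of 1.36 (SE 0.28, adjusted p 0.0419 by edgeR). Pik3cd, the leukocyte PI3-kinase subunit, was at 51.6 ± 6.80 against 27.2 ± 3.93 CPM (0.79, SE 0.13, adjusted p 0.0244 by edgeR), and Ptpn6, the phosphatase SHP-1 that damps cytokine receptor signals, at 24.7 ± 1.32 against 13.1 ± 2.16 CPM (0.78, SE 0.13, adjusted p 0.0221 by edgeR). Jak1, Stat5a and Stat5b were not called against WT in either mutant or sex, with edgeR adjusted p of 0.311 to 0.715, 0.291 to 0.880 and 0.288 to 0.932. The lymphocyte ligand genes stayed near the limit of detection: Il2 had at most 13 counts in a group of 4 libraries, Il21 at most 6, and Il4 at most 0.366 CPM in a library, and none of the 3 passed the filter in any comparison with WT.

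Genes that these cytokines are known to induce in lymphocytes were examined as a list of 26. In Y665F females 23 could be tested and 3 were called, all higher, with a median log2 fold change of 0.39 and 20 of 23 above 0. Gzmb, a granule protease of cytotoxic cells, was at 1.44 ± 0.418 CPM against 0.494 ± 0.127 CPM in WT (1.39, SE 0.27, adjusted p 0.0365 by edgeR). Tbx21, the transcription factor T-bet, was at 2.26 ± 0.261 against 0.901 ± 0.198 CPM (1.19, SE 0.21, adjusted p 0.0259 by edgeR). Ctla4, an inhibitory receptor of regulatory and activated T cells, was at 0.650 ± 0.245 against 0.0755 ± 0.0472 CPM (2.94, SE 0.49, adjusted p 0.0240 by edgeR), on 79 counts against 11. Without WT females 1 and 4 none of these calls, nor those of the pathway and T cell lists, was made.

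Y665H in females gave 1 called member, Il2rb, which was lower, where 3.34% of 15469 tested genes were called and 1.80% were called lower. This call, too, is not free of the choice of the members. Groups were apart for Il2rb and for Il7, which was higher at a log2 fold change of 0.26 (SE 0.14, adjusted p 0.301 by edgeR), against 6.81% of all genes apart and lower and 6.45% apart and higher. The members' median log2 fold change was -0.18, and 3 of 10 were above 0, beside a median of -0.0046 over all genes. No pathway gene was called. Of 21 tested genes of the lymphocyte response list, 4 were called, all lower: Gzma (-1.63, SE 0.35, adjusted p 0.0437 by edgeR), Gzmb (-2.01, SE 0.45, adjusted p 0.0486 by edgeR), the pore-forming protein gene Prf1 (-1.75, SE 0.31, adjusted p 0.0263 by edgeR) and the adhesion receptor gene Cd44 (-0.91, SE 0.17, adjusted p 0.0303 by edgeR). Gzmb rested on 17 counts in the 4 Y665H libraries.

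NK cell genes were lower together with Il2rb in Y665H females. All 8 tested NK markers had negative log2 fold changes, with a median of -1.26, and Nkg7, Prf1 and Gzma were called lower. Without Klrb1c, the NK list summed to 2.53 to 3.15 CPM in Y665H females, below the 5.51 to 7.10 CPM of WT females. Of the T cell markers, 11 of 13 tested were above 0 in Y665H against WT females, the median was 0.42 and none was called. Y665H female 4 stood apart from the other Y665H females in these genes, with 5.31 CPM of Cd3d, Cd3e and Cd3g against 1.43 to 2.17 CPM in the other 3 and 1.61 to 2.46 CPM in WT females. Without that library the T cell receptor sums therefore did not lie above WT. Only 2 libraries, both of Y665H males, had less Il2rb than Y665H female 4. The part of NK cell numbers in the lower Il2rb was not tested. Without the muscle-rich libraries, 2 of 15570 genes were called and none of the 10 members.

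**Figure D4:**
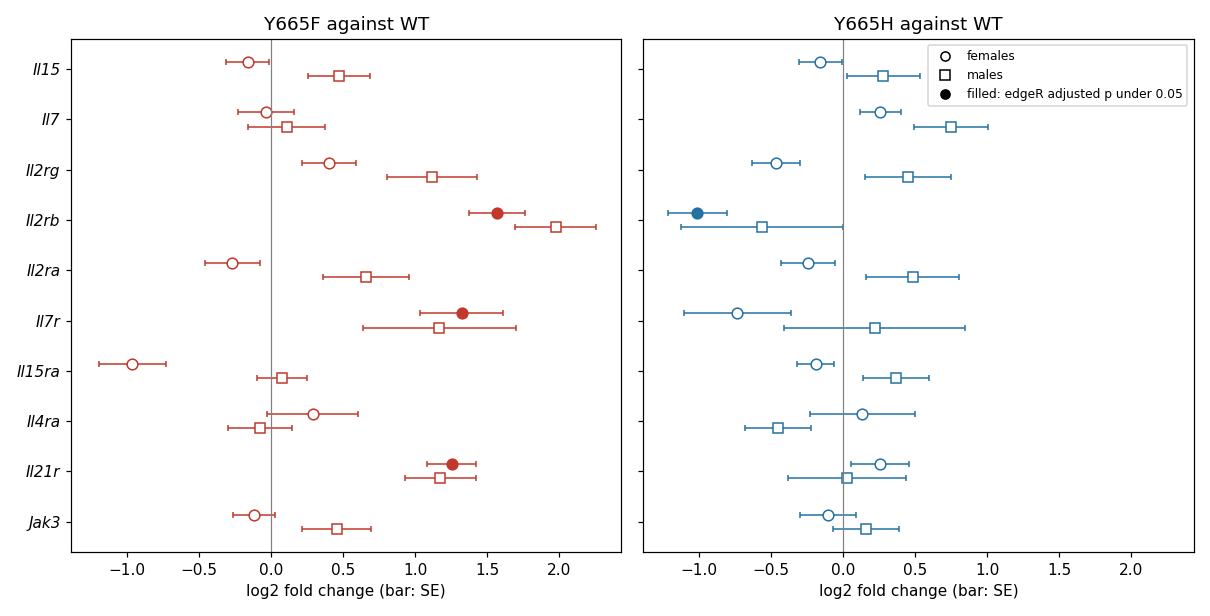
Log2 fold changes (points) with SE (bars) of the 10 genes for Y665F (left) and Y665H (right) against WT, in females (circles) and males (squares); filled points passed an edgeR adjusted p of 0.05. Filled are Il2rb, Il7r and Il21r in Y665F females, at 1.57, 1.32 and 1.25, and Il2rb in Y665H females, at -1.01.

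In males, no member was called for Y665F against WT by edgeR, and neither was any of the 16240 genes tested (0%). An unadjusted p under 0.05 (edgeR) was found for 3 members (Il2rg, Il2rb and Il21r) and for 2772 of all tested genes. The DESeq2 Wald test called these 3 members and 1036 of all genes. Groups were apart and Y665F higher for 4 members, Il15, Il2rg, Il2rb and Il21r, against 5.59% of all genes (and 3.26% apart and lower, where there was no member), and the median log2 fold change was 0.56 with 9 of 10 above 0, beside -0.040 over all genes. The T cell receptor genes summed to 2.59 to 3.39 CPM in WT and 7.48 to 12.9 CPM in Y665F males, and the NK list without Klrb1c to 4.99 to 8.20 and 14.4 to 23.0 CPM, again without overlap. Without WT males 2, 3 and 4, in a fit that keeps a lone WT male, the members' median was 0.25. The value of Il21r in that fit was 1.48.

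For Y665H against WT in males, edgeR again called 0 of 10 members and 0% of 16406 genes. Il7 alone of the members reached an unadjusted p under 0.05 (edgeR), as did 1874 of all genes. The DESeq2 Wald test called 0 members and 64 of all genes. Il7 was also the only member with groups apart, higher in Y665H, a property of 2.43% of all genes, while 1.18% were apart and lower. The median log2 fold change was 0.25 over the members and -0.055 over all genes. Without WT males 2, 3 and 4 and Y665H male 3, a lone WT male is left, so that fit cannot decide on the members.

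The mutants were compared directly within each sex. In females this is the comparison in which the difference of Il2rb was known beforehand, so its values are a description. Y665H females had 0.167 of the fitted Il2rb level of Y665F females (log2 fold change -2.58, SE 0.18). Il7r differed by -2.06 (SE 0.36), Il21r by -1.0 (SE 0.17) and Il2rg by -0.87 (SE 0.14), and these 4 genes had separate groups and an adjusted p under the threshold, a count from which nothing is read, beside 17.4% of all 15493 genes called, 8.59% called lower, 8.77% called higher and 21.5% lower with separate groups. The 6 other members lay between -0.16 and 0.77. Without Y665H females 3 and 4 the values of Il2rb, Il7r, Il21r and Il2rg were -2.40, -2.28, -1.19 and -0.82. The contrasts of each mutant with WT share libraries with this one, so they are no independent support for it.

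In males, Y665H against Y665F gave 0 called members by edgeR, where 1.03% of 15986 genes were called. An unadjusted p under 0.05 (edgeR) was reached by 7 members and by 2879 of all 15986 genes. The DESeq2 Wald test called 3 members and 1078 of all genes. Il2rb came nearest, at -2.54 (SE 0.50, adjusted p 0.0571 by edgeR), and was called without Y665H male 4 (-3.13, edgeR adjusted p 0.0368), the Y665H male with the most Il2rb and the most T cell and NK cell RNA. Without Y665H male 3, rich in epididymis genes, it was at -2.28 (SE 0.46, adjusted p 0.128 by edgeR), and again no member was called. Groups were apart for Il2rb, Il21r and Il4ra, which were lower in Y665H, against 6.17% of all genes, and for Il7, which was higher, against 6.29%. Il7 in Y665H exceeded Y665F by 0.63 (SE 0.21, adjusted p 0.167 by edgeR), while Il21r was at -1.15 (SE 0.37, adjusted p 0.158 by edgeR) and Il4ra at -0.39 (SE 0.10, adjusted p 0.113 by edgeR). In the lists, Pik3cd fell (-1.05, SE 0.11, adjusted p 0.00683 by edgeR), as did Gzmb (-3.35, SE 0.49, adjusted p 0.0243 by edgeR), Gzma (-2.78, SE 0.41, adjusted p 0.0258 by edgeR) and Tbx21 (-2.41, SE 0.40, adjusted p 0.0341 by edgeR). T cell receptor genes summed to 1.44 to 5.27 CPM in Y665H males and the NK list without Klrb1c to 2.44 to 10.0 CPM, below all Y665F males.

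Sex was the last comparison. Between WT males and WT females 1 member, Il4ra, was called, lower in males, where 13.1% of 15865 genes were called and 5.95% were called lower. Il21r was the only member with groups apart, higher in males at 0.71 (SE 0.26, adjusted p 0.0969 by edgeR), a property of 18.2% of all genes (7.01% were apart and lower). Without WT males 2, 3 and 4 Il21r was at 0.39, in a fit that keeps a lone WT male. Of the pathway genes, Ptpn6 was higher in males (0.90, SE 0.17, adjusted p 0.0175 by edgeR). Socs2, Pim2 and Tnfrsf18 of the lymphocyte response list were called, at -1.11, 1.81 and 0.55 (SE 0.24, 0.48 and 0.15, edgeR adjusted p 0.0256, 0.0433 and 0.0450). Epididymis genes were over 1000 CPM in WT males 2, 3 and 4 and at most 0.190 CPM in WT females. Skeletal muscle genes were at 20.7 to 30.2 CPM in WT males and 92.8 to 821 CPM in WT females. Sex and these differences of tissue content cannot be told apart in this comparison.

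Whether a mutation changed the 10 genes differently in males and females was tested as an interaction, given as the male minus the female log2 fold change. For Y665F, edgeR called 0 members, beside 0% of 16732 genes. Il15ra (1.04, SE 0.30, adjusted p 0.131 by edgeR), Il2ra (0.93, SE 0.36, adjusted p 0.170 by edgeR) and Il15 (0.63, SE 0.25, adjusted p 0.182 by edgeR) had an unadjusted p under 0.05. So had 3645 of all 16732 genes. The DESeq2 Wald test called Il15ra, with an adjusted p of 0.0285, beside 1152 of all genes. Without WT male 1, edgeR called Il2ra, with an adjusted p of 0.0465, beside 1686 of all genes. The interaction of Il2rb was 0.41 (SE 0.35, adjusted p 0.497 by edgeR), that of Il7r -0.14 (SE 0.61, adjusted p 0.915 by edgeR) and that of Il21r -0.079 (SE 0.29, adjusted p 0.899 by edgeR), so a call made in females and not in males is no evidence that the effect on these 3 genes depends on sex. For Y665H, 0 members were called by edgeR, beside 0.0119% of 16827 genes, and 0 by the DESeq2 Wald test, beside 689 genes. Il2rg, at 0.91 (SE 0.35, adjusted p 0.212 by edgeR), was the only member with an unadjusted p under 0.05, beside 3079 of all genes. Without WT male 1, edgeR called Il2rg, with an adjusted p of 0.0221, beside 1844 of all genes. The interaction of Il2rb for Y665H was 0.45 (SE 0.62, adjusted p 0.709 by edgeR).

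Genes with the most similar pattern were sought for 5 members among the 14801 genes that average 1 CPM or more. The measure was Pearson's r of log2(TMM-scaled CPM + 1) over the 24 libraries, which share their depth, cell composition and group. Values within groups used edgeR's log2 CPM, also TMM-scaled, with the group means removed. Il2rb was most like Sh2d2a (r = 0.96), Rasal3 (0.96) and Tbx21 (0.96), and after the group means were removed these values were 0.80, 0.72 and 0.77. Il2rg was most like Il27ra (0.92), 9930111J21Rik1 (0.92) and Fmnl1 (0.92), and Il7r like Cd84 (0.95), AF251705 (0.94) and Myo1f (0.93), with 0.73 to 0.85 within groups for these 6. Il4ra was most like Phyhip (0.95), P4ha3 (0.93) and Ngfr (0.91), of which P4ha3 had 0.50 within groups. Il15 had weaker partners, Tbc1d19 (0.87), Apbb2 (0.78) and Son (0.78), and the last was at 0.51 without the 2 libraries farthest from the median of Il15.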

How the data were processed

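The authors deposited 24 files of raw read counts per gene symbol, 1 per library, with 24421 symbols and 5 entries that name no gene. Per the labels' protocols, ribosomal RNA was removed and stranded paired-end libraries were made from total RNA. The submitters' processing notes name FastQC 0.11.9, Trimmomatic 0.36, STAR, SAMtools 1.9, Picard 2.9.2, HTSeq 0.9.1 and the build mm10. The annotation is not given in the sources used here. The entries without a gene held 24.8 to 39.7% of counts and were left out. No 2 libraries of a group agreed within sampling noise (chi-square per degree of freedom of at least 17.3).

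CPM, group means and SD were computed from gene sums. In R 4.3.3 with limma 3.58.1, edgeR 4.0.16 fitted a quasi-likelihood model to the counts of all genes and gave its F test. Scaling was by TMM, genes of low count were dropped by the default rule, and p-values were adjusted by Benjamini-Hochberg over all tested genes. A gene is termed called at an adjusted p under 0.05. Contrasts of 2 groups used their 8 libraries and interactions 16. Fold changes come from this fit and differ slightly from ratios of CPM. The procedure was also run on counts simulated from its own fitted dispersions. These hold no libraries rich in other tissues, so the run cannot show whether the calls here are sound. Alternatives were library totals, DESeq2 1.42.0, no filter, all 24 libraries, the replicate number as a block, each library left out and, chosen after seeing the data, no libraries rich in epididymis or muscle genes. Levels per kb used merged exons of GENCODE on GRCm38, and promoter windows are from RefSeq.

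The 10 genes and the lists were chosen with earlier results of these data known. Named were the 10 genes, up to 6 called genes per list and comparison for the pathway and lymphocyte response lists, Jak1, Stat5a, Stat5b, Il2, Il4, Il9r and Il21 in any case, and the 3 most similar genes of 5 members; named marker genes and the trimmed marker sums were chosen after their values were seen. One further called pathway gene is not reported here.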

Additional observations from a re-analysis of the deposited data

How the results depend on the processing

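Of the 9 comparisons, the number of called members kept within 1.5 times of the reported one in 41 of 54 alternatives that did not leave out single libraries. It moved from 0 to 3 (DESeq2) and 3 (all 24 libraries) for Y665F against WT in males, from 0 to 3 and 2 for Y665H against Y665F in males, from 0 to 1 (DESeq2) for the interaction of Y665F, from 1 to 0 for Y665H against WT in females (all 24 libraries, replicate block, no muscle-rich libraries), from 1 to 0 for WT males against females (library totals, no filter, replicate block, no epididymis-rich libraries) and from 3 to 0 in Y665F females against WT (no muscle-rich libraries). Calls over all genes moved in the same settings. They went from 0 to 1036 (DESeq2) and 2261 (all 24 libraries) for Y665F males. Between the mutant males they went from 164 to 1078 and 400, and for the Y665F interaction from 0 to 1152 (DESeq2). For Y665H females they went from 516 to 250 (all 24 libraries), 32 (replicate block) and 2 (no muscle-rich libraries). The WT sexes went from 2079 to 2785 (library totals), 1636 (no filter) and 825 (replicate block). Leaving out single libraries gave 1 to 4 called members for Y665F and 0 to 2 for Y665H against WT in females. It gave 0 to 1 for Y665F and 0 to 0 for Y665H against WT in males. It gave 0 to 1 between the mutant males, 0 to 1 for the WT sexes and 0 to 1 for each interaction. Between the mutant females the count was 4 to 5, from which nothing is read because the difference of Il2rb was known beforehand. The cause of these shifts was not tested.

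Replicate numbers showed no regular pairing of the libraries. Same-numbered libraries of compared groups correlated at -0.41 to 0.70, and 0 to 2 of 4 libraries per comparison correlated best with their own number. With so few libraries this check cannot exclude a pairing. With the replicate block, the Il2rb value of Y665H females was -1.0 (edgeR adjusted p 0.0637), that of Il4ra between the WT sexes -1.17 (0.0864), and calls over all genes moved from 521 to 676 for Y665F and from 516 to 32 for Y665H in females; Il21r in Y665H males was at -0.085 and the Y665F interaction of Il7r at 0.061, both uncalled and of the other sign.

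Scaling by library totals moved the median log2 fold change of all genes from 0.020 to 0.15 for Y665F females, from -0.031 to -0.18 between mutant females, from 0.042 to 0.22 between the WT sexes and from -0.063 to -0.25 for the Y665F interaction. Higher and lower calls then went from 361 and 160 to 1025 and 139, from 1358 and 1331 to 799 and 2406, and from 1135 and 944 to 2111 and 674. DESeq2 gave 974 and 1056 in Y665F females. Under library totals, Il7 (0.089) and Jak3 (0.012) in Y665F females and the Y665F interaction of Il7 (-0.037) changed sign.

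Further sign changes were all of uncalled members. Without epididymis-rich libraries they were Il7 (-0.31), Il15ra (-0.063) and Il4ra (0.28) in Y665F males, Il2rg (-0.064) and Jak3 (-0.079) in Y665H males, Il2rg (0.10) and Jak3 (0.11) between the WT sexes, and the interactions of Il7 (-0.26), Il4ra (0.0078) and Il21r (0.24) for Y665F and of Il21r (0.25) for Y665H. Without muscle-rich libraries they were Il7 (0.012) and Jak3 (0.13) in Y665F females and Jak3 (0.41) in Y665H females. Between the mutant females, the sign also changed for Il15 (-0.17), Il2ra (-0.22) and Il4ra (0.32) without muscle-rich libraries, for Il15, Il2ra and Jak3 under library totals and for Jak3 with the replicate block. Over single omissions, values crossed 0 for Il7 (-0.13 to 0.12) in Y665F females, Il7 (-0.013 to 0.27), Il15ra (-0.031 to 0.19) and Il4ra (-0.18 to 0.23) in Y665F males, Il4ra (-0.21 to 0.42) and Jak3 (-0.23 to 0.0069) in Y665H females, Il7r (-0.22 to 0.78), Il21r (-0.37 to 0.26) and Jak3 (-0.010 to 0.32) in Y665H males, Il15 (-0.081 to 0.076), Il2ra (-0.13 to 0.13), Il4ra (-0.49 to 0.12) and Jak3 (-0.097 to 0.13) between the mutant females, Il2rb (-0.088 to 0.39) between the WT sexes, and the interactions of Il7 (-0.0054 to 0.32), Il7r (-0.42 to 0.39) and Il21r (-0.16 to 0.14) for Y665F and of Il2rb (-0.11 to 0.81) and Il21r (-0.59 to 0.017) for Y665H. With TMM-scaled levels, 2 of 60 group means moved by more than 1 SD. Counts limit Il7r, at 17 or more per library, and the cytokine genes Il2 and Il21, most.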
